A study of Mus musculus with 4 samples.

Results

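The regions described here are the neighbourhoods of 7 replication origins (ORIs) of mouse embryonic stem (ES) cells that lie outside annotated promoters. These are ORIs 43276, 44450, 65321, 65456, 66946, 67065 and 108415. Each ORI carries the number of the repeat-masked genomic fragment that holds it, and a neighbourhood comprised every tiled probe of that central fragment and of the fragments numbered up to 12 below or above it. The 7 windows held 499 of the 19805 tiled probes, in 159 of 10582 fragments, with 88 probes in the central fragments and 411 in the flanking ones. Nascent DNA strands purified from the mouse ES cell line PGK12.1, labelled as female pluripotent cells and given no treatment, were co-hybridised with total genomic DNA of these cells to 2-colour Agilent arrays of 60-mer probes. On 2 arrays the nascent strands were 300–800 nt long and carried Cy3, and on the other 2 they were 100–600 nt long and carried Cy5. Precision is limited throughout by having 2 arrays per fraction. Strand length, dye, array print and software version all differed between the fractions, and their effects cannot be told apart. The cells came from asynchronous cultures of a single line, so every value is an average over cells in all stages of the cycle.

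The 7 ORIs were chosen by the log2 ratios of the 300–800 nt arrays, from which the study listed its ORIs, and were then taken into its quantitative PCR (Q-PCR) set. The 300–800 nt values at the central fragments are therefore given as a description without a test, whereas the 100–600 nt arrays did not enter that listing. All log2 ratios below are nascent strands over genomic DNA after loess normalisation within each array, so that 0 marks the centre of the array.

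Replication starts at ORIs, where the double helix is opened and short RNA-primed strands are laid down in both directions. The youngest strands thus mark where synthesis began, and λ-exonuclease, which spares strands that carry a 5′ RNA primer, removes broken DNA. The shortest fractions can also contain Okazaki fragments, the pieces of the lagging strand, which arise wherever a fork passes. Many mammalian ORIs coincide with CpG island promoters, and others lie in introns, exons, gene ends or intergenic DNA with no known promoter.

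By the study's list, which gives positions on Ensembl mouse build 35, ORI 43276 lay in an intron of Hs6st2, which encodes a heparan sulfate 6-O-sulfotransferase, and ORI 44450 in an intron of Gpc3, which encodes the heparan sulfate proteoglycan glypican-3. ORI 66946 spanned exons and an intron of Srpk3, a kinase of SR splicing proteins. ORI 65456 was placed in the last exon of Magea10, a gene of the melanoma antigen family, and ORI 67065 at the 3′ ends of Avpr2, the vasopressin V2 receptor gene, and of Arhgap4. ORI 108415 on chromosome 3 was intergenic, and the other 6 lay on chromosome X. No row of the list was found for ORI 65321. The location of none of the 6 listed ORIs was given as a promoter or CpG island.

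The probes that placed 4 of these ORIs in introns, exons or intergenic DNA are shown because they carry the peaks described below. They are printed as on the array, with CpG dinucleotides in capitals; the strand was not given.
ORI 43276, intron of Hs6st2, chrX:46102337-46102396: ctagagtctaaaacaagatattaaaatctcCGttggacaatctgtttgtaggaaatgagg
ORI 43276, intron of Hs6st2, chrX:46102604-46102663: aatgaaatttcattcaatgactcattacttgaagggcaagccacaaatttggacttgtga
ORI 44450, intron of Gpc3, chrX:46940454-46940513: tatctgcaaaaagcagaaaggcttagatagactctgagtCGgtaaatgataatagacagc
ORI 66946, intron of Srpk3, chrX:68438406-68438465: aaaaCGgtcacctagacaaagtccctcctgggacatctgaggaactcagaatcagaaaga
ORI 66946, exon of Srpk3, chrX:68438196-68438255: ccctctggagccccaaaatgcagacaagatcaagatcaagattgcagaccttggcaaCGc
ORI 66946, exon of Srpk3, chrX:68438036-68438095: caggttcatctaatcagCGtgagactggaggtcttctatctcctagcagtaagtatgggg
ORI 108415, intergenic, chr3:97746283-97746342: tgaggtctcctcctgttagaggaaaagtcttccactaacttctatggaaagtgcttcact
Of these 7 sequences, 5 contained a single CpG and the other two contained none. Their C+G content was between 35% and 51.7%, beside a mean of 42.2% over all tiled probes.

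Each array held every one of the 19805 probes. Spots marked by the scanner software were left out, which removed 8 and 13 spots from the 300–800 nt arrays (2 spots per probe) and 1491 and 3450 from the 100–600 nt arrays (mostly 1 spot per probe), so that 15478 probes, among them 366 members, had a value on all 4 arrays. Over all probes the SD between arrays was 0.092 for 300–800 nt and 0.348 for 100–600 nt. The spread between the 300–800 nt arrays was smaller than repeated spots within them predict (variance ratio 0.685), and their mean was counted as 1 sample when the fractions were compared. The study describes the 300–800 nt strands as 2 biological replicates, and the 100–600 nt strands as preparations from the same cells. Whether the hybridisations came from separate cultures is not in the labels. The p-values measure the spread between arrays, part or all of which may be technical.

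At the highest probe of each central fragment the 300–800 nt arrays read between 1.45 and 2.45, as means of both arrays. The Magea10 probe of ORI 65456 gave the top value, 2.43 on array 1 and 2.48 on array 2. Next came the probe of ORI 67065, with 2.14 on each array. For ORI 44450, in Gpc3, the ratios were 1.93 and 1.80. ORI 43276, in Hs6st2, read 1.75 and 1.44. The highest probe of ORI 65321 read 1.40 and 1.67, that of intergenic ORI 108415 read 1.56 and 1.42, and that of ORI 66946, in Srpk3, 1.49 and 1.42. All of these values lay above the 0.95 quantile of their own array, the threshold that the study's methods use for a positive probe, which was 1.15 on array 1 and 1.18 on array 2. Array 1 was the higher for ORIs 43276 and 108415 and array 2 for ORI 65321, and among the 4 ORIs with means between 1.45 and 1.60 the order was not separated by the difference between the arrays.

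At the same 7 probes the 100–600 nt arrays gave smaller ratios, between 0.30 and 0.77 as means. The order was also different: ORI 65321 came first with 0.40 on array 1 and 1.14 on array 2, and ORI 65456, the highest in the longer strands, came last with 0.18 and 0.41. ORI 43276 read 0.38 and 0.86, and ORI 108415 read 0.38 and 0.85. ORI 44450 gave 0.20 and 0.85, ORI 66946 gave 0.39 and 0.66, and ORI 67065 gave 0.03 and 0.81. Every one of the 14 values was above 0, where the median over all tiled probes was 0.02 in this fraction. The 7 probes share the same 2 arrays, so the 14 values are not independent. Array 2 was the higher of the pair at all 7 probes. Array 1 passed its own 0.95 quantile of 0.62 at none of these probes, whereas array 2 passed its quantile of 0.80 at 5 of them.

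**Figure D1:**
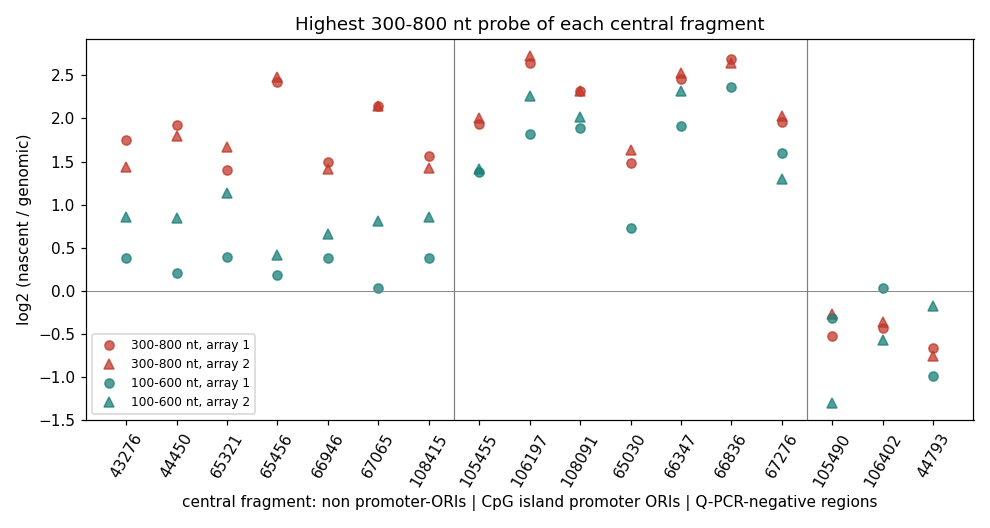
Log2 ratio of nascent to genomic signal (vertical axis) at the highest 300–800 nt probe of each central fragment, with 1 point per array, for the 7 non promoter-ORIs, 7 CpG island promoter ORIs and 3 Q-PCR-negative regions. The non promoter-ORIs lie between 1.40 and 2.48 on the 300–800 nt arrays and between 0.03 and 1.14 on the 100–600 nt arrays.

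A test against 0 on the 100–600 nt arrays (limma, Benjamini-Hochberg over 15478 probes) passed at 1 of the 7 highest probes, that of ORI 65321, whose log2 ratio was 0.77 ± 0.23 (SE, n = 2 arrays; limma adjusted p = 0.033). This call was lost with median centring in place of loess (limma adjusted p = 0.51), with normexp background correction (limma adjusted p = 0.44) and with the marked spots kept (limma adjusted p = 0.069), and over all alternatives the limma adjusted p ran from 4.3e-05, with array 1 left out, to 0.51. The count rose under other alternatives. When all 4 arrays shared one spread, 4 of the 7 passed, those of ORIs 66946, 108415, 43276 and 65321, with limma adjusted p-values from 0.031 to 0.047. With a single 100–600 nt array, assumed to vary like the 300–800 nt arrays, all 7 passed on array 2 and 4 on array 1. In the fit of the 2 arrays the other 6 had limma adjusted p-values from 0.069 for ORI 43276 to 0.39 for ORI 65456. With median centring the probe of ORI 65456 turned to -0.22 in the 100–600 nt fraction. A p that misses the threshold with 2 arrays does not show that these probes were not enriched.

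The signals behind these ratios were low in the genomic channel. On the 300–800 nt arrays the genomic signal at the 7 highest probes was between 0.159 and 0.531 times the array median, and all 7 were under 1. The nascent signal was between 0.621 and 2.46 times its median and exceeded 1 at 2 probes, 2.46 times for ORI 67065 and 1.07 times for ORI 108415. For ORI 65456, the highest ratio of the set, the nascent signal was 0.621 and the genomic signal 0.159 times the median. A low genomic signal was not limited to the 7 probes: of 991 probes above the 0.95 quantile of the 300–800 nt mean, 78.9% had one under the median. The nascent signal differed, since it was above the median at 62.3% of the 991 and at only 2 of the 7. Choosing probes by a high ratio favours a low genomic signal by construction. On the 100–600 nt arrays the genomic signal at the 7 probes was between 0.29 and 0.71 times the median. Every spot used at these probes was well above background in both channels, and the part of the low genomic signal in the ratios was not tested.

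**Figure D2:**
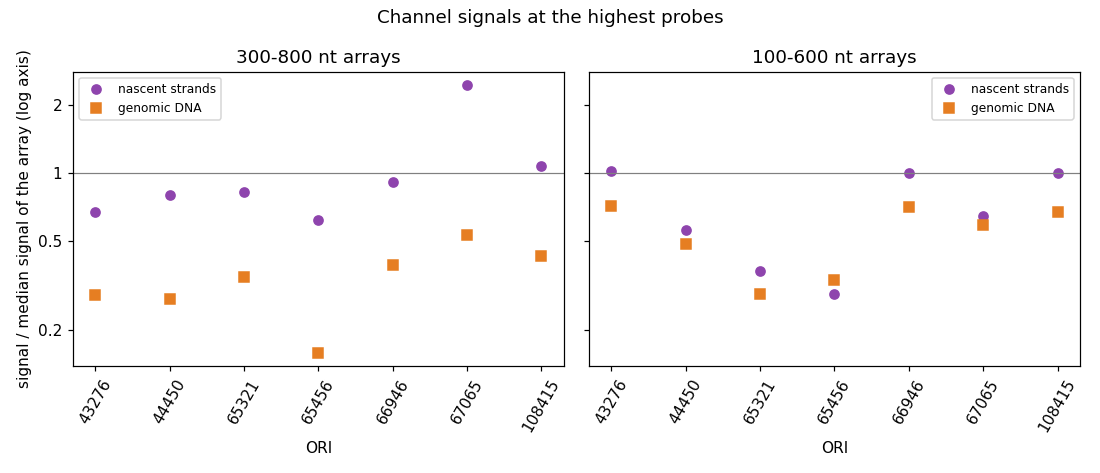
Signal of the nascent strands and of genomic DNA at the highest probe of each of the 7 ORIs, divided by the median of that channel on the array (log axis, mean of 2 arrays), for the 300–800 nt arrays on the left and the 100–600 nt arrays on the right. The genomic signal is under the median, drawn as a line at 1, for all 7 ORIs in both fractions, and the nascent signal of the 300–800 nt arrays is above it only for ORIs 67065 and 108415.

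Within the central fragments the exact distance between probes is known from the offsets in their names, and the 300–800 nt ratios changed over short distances. At 1 to 300 bp from the highest probe 3 of 6 probes were positive, and beyond 300 and up to 600 bp 5 of 13 were. The medians in these intervals were 1.00 and 0.89. Beyond 600 and up to 1000 bp 1 of 11 probes was positive, with a median of 0.07, and from there to 2000 bp 1 of 19, with a median of -0.15. Since the highest probe was picked on these values, a fall away from it is partly a property of the choice.

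The flanks of the peaks differed from ORI to ORI. Around ORI 44450 the ratio fell from 1.86 to -0.78 within 230 bp on one side and to 0.89 at 420 bp on the other. The neighbours of the ORI 65456 peak read 0.76 at 210 bp and -0.61 at 430 bp. At ORI 43276 the neighbour 267 bp away remained at 1.25, and the next probe on that side, 388 bp from the peak, read -0.12. The highest probe of ORI 65321 was the last of its fragment, and its only neighbour, 120 bp away, read 0.39. ORI 108415 had 3 probes, of which 2 were positive, 1.49 and 1.38 at 300 bp from each other.

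The central fragment of ORI 66946 was 9192 bp long and had 35 probes, the most of the 7. Its 300–800 nt ratios formed a block of 5 consecutive probes between 0.89 and 1.45, from 550 bp on one side of the highest probe to 370 bp on the other, which includes the 3 probes printed above. A second high site, with ratios of 1.42 and 1.46 on the arrays, lay 4210 bp away in the same fragment, and between them the ratio dropped to -1.88. Averaged over all 35 probes the fragment was at -0.01. In the 100–600 nt fraction the highest probe was a different one, 2510 bp from the 300–800 nt peak, with a C+G content of 66.7% and ratios of 1.08 and 1.44 (limma adjusted p = 0.00099). The 300–800 nt arrays read 0.16 and 0.10 at that probe. Among the 3 listed Srpk3 probes, the exonic one 370 bp from the peak passed the test in the 100–600 nt fraction, with ratios of 0.57 and 0.89 (limma adjusted p = 0.032).

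ORI 67065 had the broadest set of high probes. Its fragment of 5569 bp held 22 probes, of which 7 were positive in the 300–800 nt mean. Besides the peak, the listed probes 410 bp and 660 bp away read 1.97 and 1.95, and 1.65 and 1.46. A lower probe stood between the peak and these, 0.91 at 310 bp, and the nearest probe on the other side of the peak, 330 bp away, read -0.19. A further pair of positive probes lay 2180 bp and 2610 bp away, at 1.21 and 1.43. The lowest probe of any of the 7 central fragments was also here, with -2.07 and -2.11 on the arrays, 3260 bp from the peak. In the 100–600 nt fraction the listed probes read 0.03 and 0.81, 0.03 and 0.59, and -0.08 and 0.54, so that array 1 was close to 0 at each of them.

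**Figure D3:**
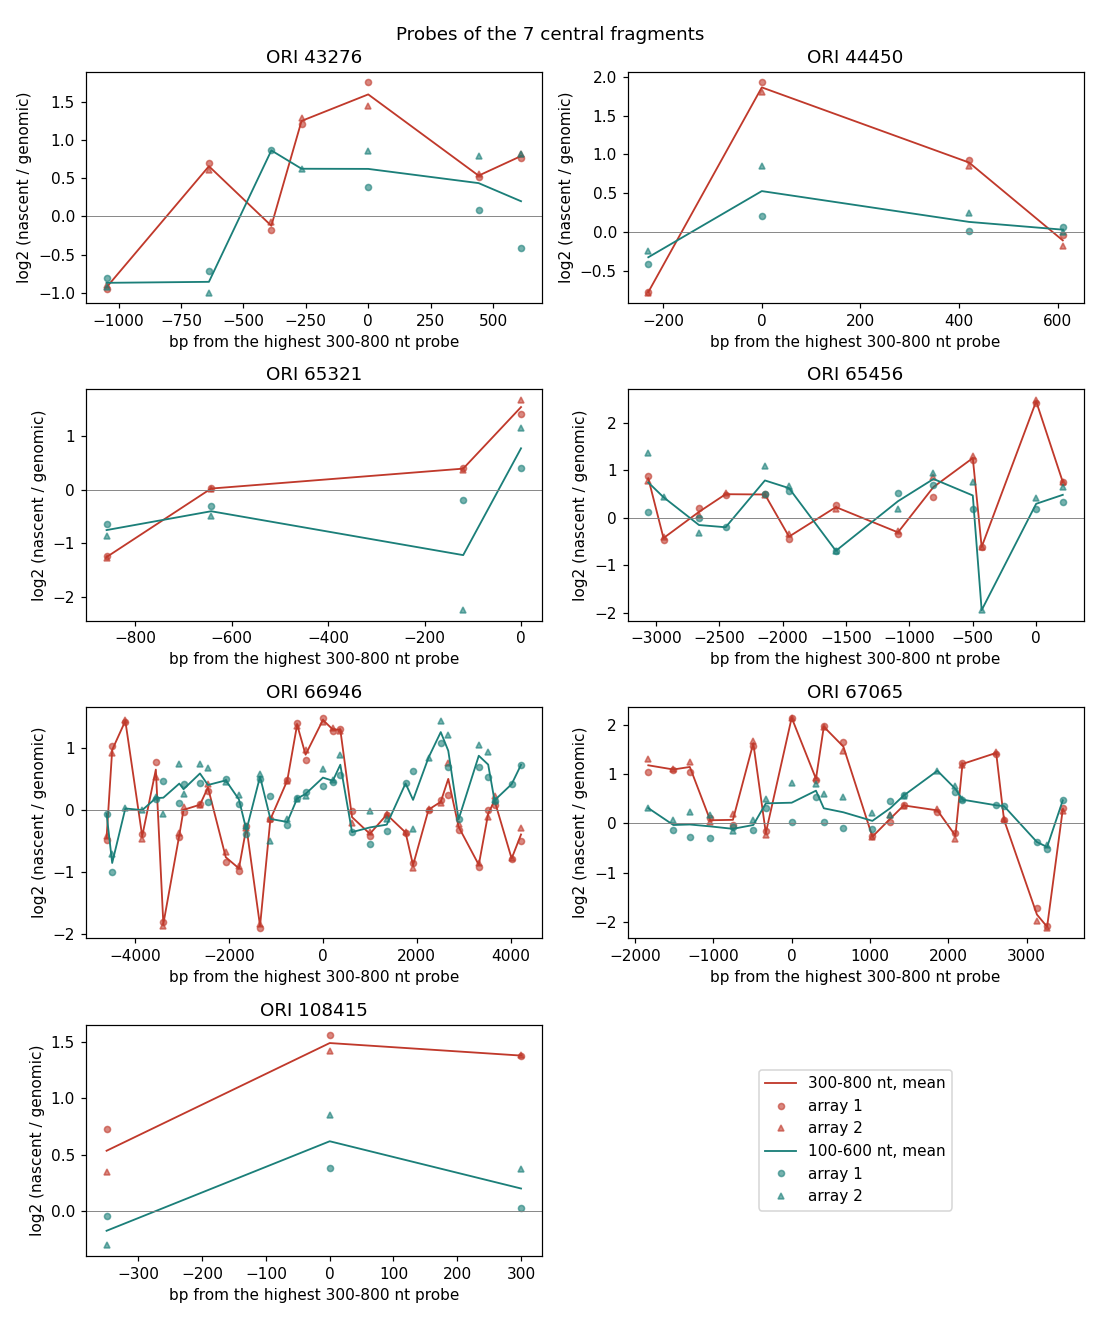
Log2 ratio of nascent to genomic signal for each probe of the 7 central fragments, against the distance in bp from the highest 300–800 nt probe, with points for the arrays and lines through the means (through a single array where the other had no value). The 300–800 nt line has its maximum at 0 bp by construction, and in ORI 66946 the 100–600 nt line peaks 2510 bp away from it.

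The highest probe of the 100–600 nt fraction coincided with that of the 300–800 nt fraction in 3 of the 7 central fragments, those of ORIs 44450, 65321 and 108415, which had 4, 4 and 3 probes. In the other 4 fragments the highest probes of the fractions were 388, 810, 1860 and 2510 bp apart, and the 300–800 nt peak ranked 3rd of 7 probes in ORI 43276, 9th of 13 in ORI 65456, 10th of 35 in ORI 66946 and 7th of 22 in ORI 67065. For ORIs 43276 and 67065 the highest 100–600 nt probe had a value on 1 array alone. Across the 88 central probes the correlation between the fractions was 0.24, against 0.36 over the 19635 tiled probes with a value in both. These correlations are across probes that share arrays and are not independent, and are given as a description.

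Averaged over fragments, the central position stood above its surroundings in the longer strands. The mean of the 7 central fragments in 300–800 nt was 0.47 on array 1 and 0.45 on array 2, and that of the flanking probes 0.08 and 0.07. The 7 fragments were unlike each other, from 1.14 for ORI 108415 to -0.01 for ORI 66946, with an SD of 0.36 over regions. In 100–600 nt the central mean was 0.05 on array 1 and 0.16 on array 2, and the flank mean -0.04 and 0.09, a difference of 0.09 and 0.07. ORI 66946 had the highest central mean in this fraction (0.27) and ORI 65321 the lowest (-0.40). Besides the peak, the probes of the ORI 65321 fragment read -0.75, -0.40 and -1.22. The last was a mean of -0.19 on array 1 and -2.24 on array 2.

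Along the 24 flanking positions the mean over regions in 300–800 nt was between -0.57 and 0.43, and the SD over regions was between 0.23 and 1.66, and the central mean of 0.46 exceeded the highest flanking mean by less than these SDs. Positions 1 fragment away had means of 0.27 and 0.15, and the position 12 fragments below had 0.43. The threshold for a positive probe takes 5% of all tiled probes by construction. By distance, 20 of 88 central probes were positive (22.7%), in fragments chosen on these values. The counts were 6 of 171 at 1 to 4 fragments (3.51%), 10 of 128 at 5 to 8 (7.81%) and 8 of 112 at 9 to 12 (7.14%). In the 100–600 nt fraction the same bands held 15 of 88 (17.0%), 16 of 171 (9.36%), 10 of 127 (7.87%) and 7 of 108 (6.48%) positive probes. All 4 shares in 100–600 nt, also that of the farthest band, were thus above 5%.

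**Figure D4:**
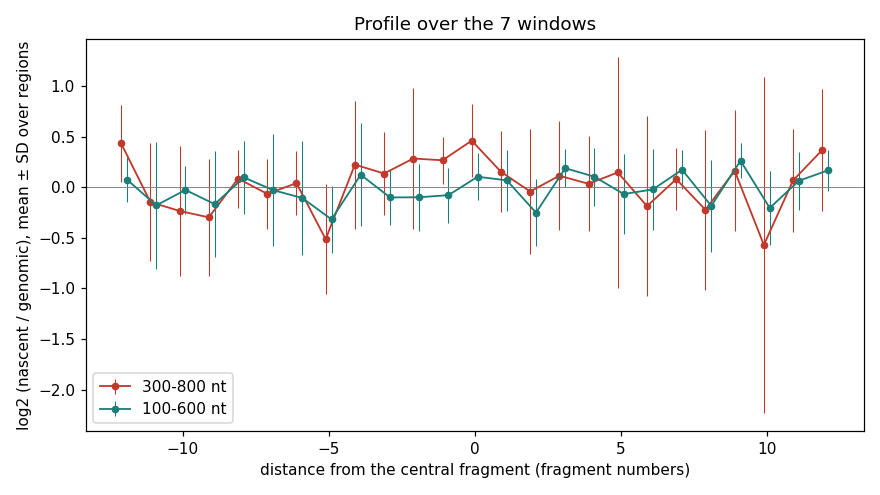
Mean log2 ratio per fragment over the 7 windows (4 to 7 regions per position; bars are the SD over regions) against the distance in fragment numbers from the central fragment. The 300–800 nt mean is 0.46 at the centre and between -0.57 and 0.43 on the flanks, and the 100–600 nt mean is 0.10 at the centre.

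In all, 44 of the 499 member probes lay above the 0.95 quantile of the 300–800 nt mean (8.82%), where the same threshold takes 5% of all tiled probes by construction, and 20 of the 44 were in the fragments chosen on this measure. The corresponding count in 100–600 nt was 48 of 494 members with a value (9.72%, beside 5% of all). A total of 5 member probes were positive in both means, as were 134 of all tiled probes, of which 991 were positive in 300–800 nt. None of the 366 members with 4 values was positive on each of the 4 arrays, and 45 of 15478 probes overall were.

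The limma test of the 100–600 nt arrays called 30 of 366 member probes enriched (8.2%), against 3.79% of all tiled probes, and 25 depleted (6.83%), against 9.58%. Of the 68 central probes tested, 10 were enriched and 6 depleted, and of the 298 flanking probes 20 were enriched and 19 depleted. The window of ORI 66946 accounted for 18 of the 30 enriched probes, 18.2% of its 99 tested probes, and the other 6 windows for 12 of 267 (4.49%). That window had the highest C+G content of the 7, 49% on average, and within it the 100–600 nt ratio had a correlation of 0.35 with the C+G content of the probe, whereas the 300–800 nt ratio had one of 0.08. In 100–600 nt the correlation was higher, 0.45, in the window of ORI 67065, which had 4 enriched probes, and it was between -0.10 and 0.12 in the other 5. Over all members the correlations were 0.23 and -0.01, and the part of base composition in the calls was not tested. With normexp background correction 4 member probes were called enriched in place of 30.

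Between the fractions, 12 of 298 flanking probes were higher in 300–800 nt than in 100–600 nt (4.03%, against 4.82% of all tiled probes; limma, Benjamini-Hochberg) and 5 were lower (1.68%, against 2.2% of all). The flanks of these ORIs thus had shares near those of the arrays as a whole. In simulated data this test found 2 of 200 probes with a log2 change of 1, so most differences of that size would be missed. In the central fragments the choice of the ORIs on the 300–800 nt values fixed the sign at the peaks, and the differences there are a description, from 0.77 for ORI 65321 to 2.16 for ORI 65456 on the log2 scale. With normexp background correction no member probe passed this test, and of all tiled probes 1 did.

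Other ORIs of the study's list fell within 2 of the windows. Near ORI 66946 lay ORI 66938, 8 fragments below it in an exon of Plxnb3, which encodes the semaphorin receptor plexin B3. Its listed probe read 1.34 and 1.46 in 300–800 nt and 0.25 and 0.50 in 100–600 nt. ORI 66942, 4 fragments below ORI 66946 and listed in an exon of the same gene under the spelling Plxb3, read 1.32 and 1.14 in 300–800 nt and 0.51 and 1.49 in 100–600 nt, where it passed the test (limma adjusted p = 0.010). The window of ORI 67065 reached ORI 67077, in an exon of Arhgap4, with 1.60 and 1.57 in 300–800 nt and 0.37 and 0.60 in 100–600 nt. The window of ORI 66946 was also the only one with flanking probes above the central peak in 300–800 nt. There were 3, a pair of them in the fragment 6 above it, where unlisted probes read 1.77 and 1.78, and 1.53 and 1.52.

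At the other extreme, the lowest flanking probe lay 10 fragments above ORI 44450, with -3.95 and -3.86 in 300–800 nt. Its 100–600 nt ratio was -0.45 on array 2, and array 1 gave no value. The probe 10 fragments below the same ORI read -2.08 and -1.75 in 300–800 nt and -1.59 and -1.56 in 100–600 nt, where it was called depleted (limma adjusted p = 0.00014). The next lowest was 8 fragments above ORI 67065, with -2.22 and -1.59 in 300–800 nt and -0.59 and -1.06 in 100–600 nt (limma adjusted p = 0.019). The last 2 of these 3 probes were thus below 0 on all 4 arrays.

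Set beside the other regions of the Q-PCR set, the 7 non promoter-ORIs had a median 300–800 nt peak of 1.60 (range 1.45 to 2.45). The 7 CpG island promoter ORIs had a median of 2.32 (1.56 to 2.68), and the highest probes of the 3 negative regions read between -0.71 and -0.39. In 100–600 nt the same probes had a median of 0.53 (0.30 to 0.77) at the non promoter-ORIs and 1.96 (0.73 to 2.37) at the CpG island promoter ORIs, and the ranges overlapped at 1 of the latter, ORI 65030, which had a value on array 1 alone. The limma test passed at 5 of the 5 CpG island probes with values on both arrays and at 1 of the 7 non promoter probes. The highest probes of the CpG island ORIs also differed in composition, with 50% to 68.3% C+G and 2 to 8 CpGs, beside 35% to 51.7% C+G and at most 1 CpG at the non promoter-ORIs. Their nascent signal in 300–800 nt was 2.71 to 10.1 times the array median, beside 0.621 to 2.46 times. The genomic signal was higher at them as well, 0.418 to 1.99 times the median, beside 0.159 to 0.531 times. The highest probes were maxima over unequal numbers of central probes, and a maximum over more probes tends to be higher. There were 88 at the non promoter-ORIs, 38 at the CpG island promoter ORIs and 10 at the negative regions. The difference between the sets was not tested, since the regions were picked by the study and are not replicates.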

How the data were processed

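The authors deposited, for each of the 4 arrays, the signal intensities of both dyes per spot as extracted by Agilent Feature Extraction. Per the file headers this was version 7.5.1 for the 100–600 nt arrays and 9.5.3.1 for the 300–800 nt arrays, and only the latter intensities are dye-normalised. The deposited processed intensities were turned into a log2 ratio of nascent over genomic signal per spot. Control spots were dropped, with spots that the software marked (saturated, uneven, outlying in their population, or not located). Ratios were loess-normalised within each array in limma 3.58.1 (R 4.3.3) and repeated spots averaged, and the fraction mean used whichever of its arrays had a value.

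The 100–600 nt ratios were tested against 0, and the fractions against each other, with limma (two-sided, Benjamini-Hochberg over 15478 probes, threshold 0.05). Both tests were also run on simulated data, in which 200 probes were given a known log2 change. For a change of 1, the test against 0 found 157 of them and made 21 false calls. For a change of 2 it found all 200, with 28 false calls. In both cases the false calls were a larger share of the calls than 0.05, so the adjusted p-values of this test may understate the error. Between the fractions, 2 of the 200 were found for a change of 1 and 196 for a change of 2, each with 0 false calls. With 1 residual degree of freedom per probe the error rests largely on the spread pooled over probes. The 100–600 nt strands carried Cy5 on both arrays, so a probe's dye effect and its enrichment cannot be told apart. A probe was positive above the 0.95 quantile of the mean ratio. Members and lists were chosen with earlier results of these data known. The text names the 7 centres, their probes, other listed ORIs in the windows, flanking probes positive on all arrays and the 3 lowest flanking probes. The flanking probes above a central peak, the highest 100–600 nt probe, the CpG island promoter ORIs and the negative regions were picked otherwise. Probe sequences and positions (Ensembl mouse build 35) were matched to the study's list by sequence, for all 150 listed probes.

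Alternatives were median centring, normexp (offset 50), marked spots kept, a filter on dim probes, other spreads, the 0.9 quantile, other definitions of centre and flank, and leaving out each array.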

Additional observations from a re-analysis of the deposited data

How the results depend on the processing

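With 2 arrays per fraction, the 100–600 nt calls depend on the spread that is assumed. Member probes called enriched in 100–600 nt numbered 30, and 19 with median centring, 4 with normexp background correction and 77 when the 4 arrays shared one spread. Probes differing between the fractions, central fragments included, numbered 30, and 0 with normexp and 142 when the 4 arrays entered as samples. The difference between the arrays of a fraction had a correlation over probes of -0.0097 between the fractions. This value cannot decide whether the hybridisation numbers pair the samples, since the 300–800 nt difference was within spot scatter (variance ratio 0.685). A fit with the hybridisation number as a replicate block gave 156 probes differing between the fractions. Leaving out 1 array gave 169 to 219 enriched probes and 28 to 289 differing ones. A lone 100–600 nt array was then assumed to vary like the 300–800 nt arrays, which spread less.

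The flank mean in 100–600 nt (0.0178) turned to -0.0237 with median centring and to -0.0378 without array 2, in both cases by less than the SD between arrays. The 300–800 nt means and the 100–600 nt centre kept their sign under each alternative run. In 300–800 nt the centre (0.46) was 0.43 with median centring, 0.32 with normexp and 1.79 with the highest probe of each fragment in place of the mean. The flank (0.08) was 0.13 with median centring, 0.0623 with normexp, 0.073 with marked spots kept, 0.0662 without fragments of other listed ORIs, and 0.14 at 1 to 4 fragments. Their difference (0.39) was 0.30 with median centring, 0.26 with normexp, 1.72 with the highest probe and 0.32 at 1 to 4 fragments. In 100–600 nt the highest probe of that fraction in each fragment gave a centre of 0.85 and a difference of 0.83. At the highest 300–800 nt probes the 100–600 nt mean was 0.54. In either fraction a maximum set against a flank mean is raised by construction. The 100–600 nt difference of the means (0.09) was 0.0656 with median centring, 0.0716 with marked spots kept, 0.10 with normexp and 0.0581 at 1 to 4 fragments. It was 0.0737 to 0.0854 with 1 array left out. Positive member probes in 100–600 nt numbered 48, and 85 at the 0.9 quantile and 27 to 50 with 1 array left out. The causes were not tested.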
